A study of Homo sapiens with 30 samples.

Results

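Doxorubicin-resistant SUM190 cells kept in 350 nM doxorubicin were compared with the same cells in the vehicle DMSO. Of the 30 libraries of the series, 4 belong to this comparison, 2 in each group. Of 20114 genes in the table, 12743 had at least 1 CPM (reads per 1000000 reads in genes, scaled between libraries) in at least 2 of the 30 libraries and were tested. SUM190 cells are a long-established line from an inflammatory breast cancer, and the resistant cells descend from them. The labels do not say how resistance was selected, whether the line is 1 clone, or whether doxorubicin was kept on the cells before the experiment. Treatments were added 24 h after seeding and lasted 72 h. The resistant cells were also given 1 µM doxorubicin, and parental SUM190 cells received DMSO, 65 nM or 1 µM doxorubicin. These groups of 2 libraries each are used below for comparison, and no cells in them received another drug. The series labels 350 nM as the low dose of the resistant line and 65 nM as the low dose of the parental line, so the low doses are not equal. The series is about chemotherapy-resistant states and JAK-STAT signalling in this cancer, and the comparison asks what a dose below 1 µM changes in cells that already resist the drug.

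Doxorubicin is an anthracycline that inserts into DNA and traps topoisomerase II on cleaved DNA, which leaves double-strand breaks. Breaks stall cells before mitosis and can activate p53 and its targets, and broken or misplaced DNA can switch on interferon-stimulated genes. Resistant cells are known to export the drug through ABC transporters or to reduce it with carbonyl and aldo-keto reductases.

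At 350 nM the resistant cells showed a limited change. CYP1A1, some keratins, CDH1, CDH3, ALDH1A1, ALDH1A3, some interferon-stimulated genes, some mitotic genes and 5 aldo-keto reductase and NRF2 target genes were higher. The metallothioneins MT2A and MT1X, KRT6C, CASP14, UGT2B genes and 5 genes of the integrated stress response were lower. With limma 486 of 12743 genes (3.81%) passed a Benjamini-Hochberg adjusted p of 0.05, with 304 higher (2.39%) and 182 lower (1.43%). Most changes were small. Only 10 of the genes that rose and 4 of those that fell changed by at least 1 on the log2 scale, and the median change was 0.51 among the higher genes and -0.43 among the lower ones. A fold change here is a difference of mean log2(CPM + 1), which understates the change of scarce genes, and the value after ± is its standard error. The groups did not overlap for 45.5% of all tested genes, so separation of 2 libraries from 2 is common here. The labels do not say whether replicates came from separate cultures, so a p-value here speaks only of how far libraries of a group spread, and that spread may be technical. It was estimated for each gene over all 30 libraries in 15 groups, which include paclitaxel and ruxolitinib treatments and a paclitaxel-resistant line. With only the doxorubicin-resistant line fitted, 488 genes were called and 376 of the 486 were kept.

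**Figure D1:**
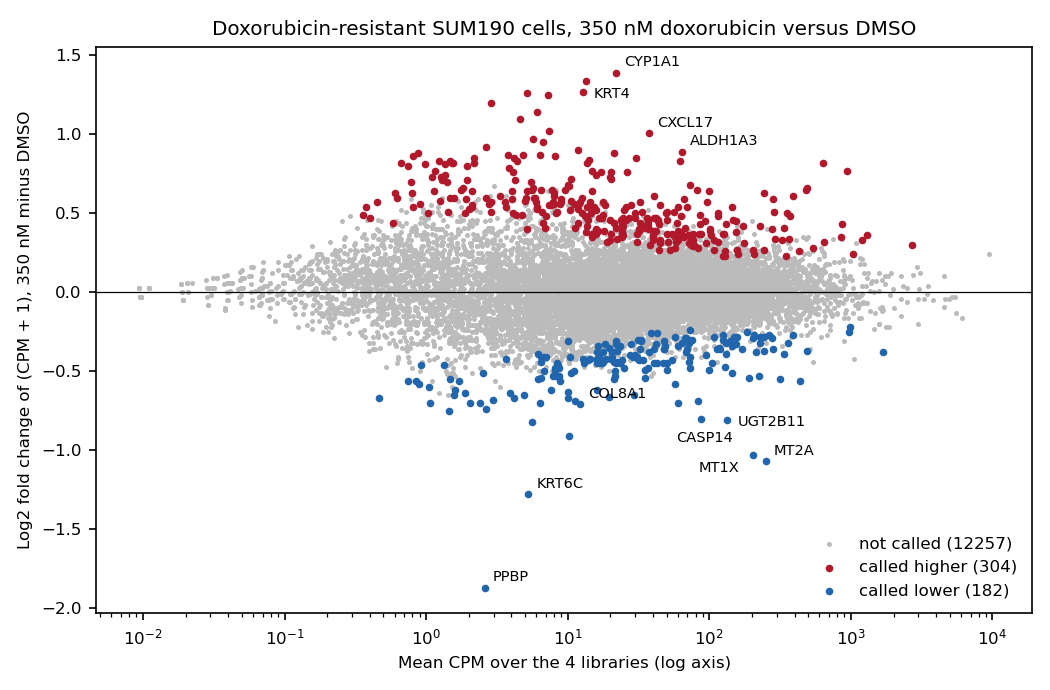
Each point is 1 of the 12743 tested genes. The x axis is its mean CPM over the 4 libraries on a log axis and the y axis its log2 fold change of (CPM + 1) at 350 nM minus DMSO, with the 304 genes called higher in red and the 182 called lower in blue. Most called genes lie within 1 unit of 0, with CYP1A1 highest at 1.39 and PPBP lowest at -1.87.

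The 4 libraries held 23656973 to 26899652 reads in genes, and a count of 0 allowed up to 0.112 to 0.133 CPM (3 reads, counting error only). The pair at 350 nM was less alike than the pair in DMSO: counts differed by a chi-square of 18.4 per degree of freedom against 4.11, and the difference between replicates followed transcript GC content across genes with a Spearman rho of -0.663 against -0.262. The median GC content was 48.4% in genes called higher, 52.9% in genes called lower and 49.6% in all tested genes with a transcript. The part of this difference in the calls was not tested. A correction of each library for GC content and length called 1609 genes, with 485 of the 486 among them. It raised the number of calls, so the calls that it kept do not measure that part. Luminal epithelial markers summed to 7800 to 7860 CPM in DMSO and 7370 to 8350 CPM at 350 nM. Markers of stromal, endothelial and immune cells summed to 34 to 36.4 and 36.9 to 41.1 CPM, of which CD68 and COL1A1 made up most. Of these 21 markers, 5 were at 0 in all 4 libraries, among them CD3D, CD3E, MS4A1 and TYROBP, and 9 were at or under the floor. One of them, the endothelial clotting factor gene VWF, was higher at 350 nM, at 1.72 and 1.5 CPM against 0.647 and 0.5 CPM (0.73 ± 0.13, adjusted p = 0.00167). Basal and myoepithelial markers summed to 5.52 to 6.58 CPM in DMSO and 5.92 to 8.14 CPM at 350 nM, so they were near absent in both groups. In RNA from whole cultures, fewer cells of a type and less RNA per cell cannot be told apart.

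Promoters are shown for 3 sets of genes that stand out below: the metallothioneins, which were the abundant genes that fell most, interferon-stimulated genes and mitotic genes. Each sequence is the 250 bases before the gene start in RefSeq, build GRCh38.p14, read 5′ to 3′ on the gene's strand. The authors used another build, and no coordinate of theirs is given here. Capitals in the metallothionein promoters mark TGCNCNC, the core of the metal response element bound by the zinc sensor MTF1, on either strand. MT2A lies at chr16:56608334-56608583 and MT1X at chr16:56682220-56682469, both on the plus strand.
MT2A: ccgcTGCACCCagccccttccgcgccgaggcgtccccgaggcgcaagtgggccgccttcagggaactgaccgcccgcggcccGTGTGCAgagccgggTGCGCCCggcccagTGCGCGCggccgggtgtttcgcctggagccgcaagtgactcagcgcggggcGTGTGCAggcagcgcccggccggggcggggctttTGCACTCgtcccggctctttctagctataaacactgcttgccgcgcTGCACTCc
MT1X: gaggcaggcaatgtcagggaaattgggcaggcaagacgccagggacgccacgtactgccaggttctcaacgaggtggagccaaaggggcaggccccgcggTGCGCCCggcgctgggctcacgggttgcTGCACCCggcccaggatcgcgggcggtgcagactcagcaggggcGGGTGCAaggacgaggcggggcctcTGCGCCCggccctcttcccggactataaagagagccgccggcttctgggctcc
The MT2A promoter holds 7 matches and the MT1X promoter 4. In the promoters of tested genes, at least 1 match occurs in 55.9%, at least 4 in 1.9% and at least 7 in 0.067%, so 1 match is common and several are not. Overlapping matches were counted separately. A match is a description of letters and does not show binding.

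Capitals in the next promoters mark TTTC, any 2 bases (NN) and TTTC again, a form of the interferon-stimulated response element bound by the ISGF3 complex, on either strand. IFIT3 lies at chr10:89327747-89327996 on the plus strand and IFI6 at chr1:27672193-27672442 on the minus strand.
IFIT3: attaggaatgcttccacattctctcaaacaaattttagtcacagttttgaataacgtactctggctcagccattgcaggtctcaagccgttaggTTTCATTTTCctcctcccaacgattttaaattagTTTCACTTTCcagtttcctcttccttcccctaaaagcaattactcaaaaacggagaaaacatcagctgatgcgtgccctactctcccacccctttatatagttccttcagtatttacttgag
IFI6: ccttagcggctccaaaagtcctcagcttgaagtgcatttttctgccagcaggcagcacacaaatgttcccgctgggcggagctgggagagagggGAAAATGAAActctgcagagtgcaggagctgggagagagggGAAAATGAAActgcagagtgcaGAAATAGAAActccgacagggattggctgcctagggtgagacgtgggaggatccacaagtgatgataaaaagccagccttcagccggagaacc
IFIT3 holds 2 matches and IFI6 holds 3. Among the promoters of all tested genes 2.36% hold the motif, 0.306% hold it at least 2 times and 0.0479% at least 3 times. It was present in 6.84% of the 234 promoters of genes called higher and in 0.658% of the 152 promoters of genes called lower.

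Capitals in the mitotic promoters mark TTTGAA, the cell cycle genes homology region read by the DREAM and MuvB complexes, and CCAAT, the NF-Y box, on either strand. CDK1 lies at chr10:60778081-60778330 and CCNB2 at chr15:59104896-59105145, both on the plus strand.
CDK1: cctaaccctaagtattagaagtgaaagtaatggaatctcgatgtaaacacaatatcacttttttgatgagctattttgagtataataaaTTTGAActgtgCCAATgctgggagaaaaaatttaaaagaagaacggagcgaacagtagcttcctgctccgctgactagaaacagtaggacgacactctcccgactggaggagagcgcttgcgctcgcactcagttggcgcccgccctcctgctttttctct
CCNB2: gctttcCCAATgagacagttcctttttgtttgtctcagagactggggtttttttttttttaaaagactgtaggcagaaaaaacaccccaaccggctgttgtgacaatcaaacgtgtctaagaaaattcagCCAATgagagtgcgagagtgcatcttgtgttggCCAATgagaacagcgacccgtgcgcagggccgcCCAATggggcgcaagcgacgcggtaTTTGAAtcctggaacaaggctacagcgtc
CDK1 has 1 match of each motif, and CCNB2 has 1 TTTGAA and 4 CCAAT matches. In CDK1 TTTGAA lies at -161 to -156 from the gene start, upstream of CCAAT at -150 to -146. In CCNB2 it lies at -29 to -24. Whether either match works as a homology region was not tested. TTTGAA occurs in 8.79% of all promoters, in 14.5% of those of genes called higher and in 7.24% of those of genes called lower. CCAAT occurs in 35.4%, 46.2% and 27%, in the same order. These shares use the 10445 of 12743 tested genes (82%) that matched the promoter table.

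CYP1A1, which encodes a monooxygenase of foreign compounds and is the classical target of the aryl hydrocarbon receptor, had the largest rise among genes named by the rule. It measured 13.9 and 9.65 CPM in DMSO, 33.6 and 30.4 CPM at 350 nM, and 95.9 and 98.6 CPM at 1 µM. The libraries thus separated by dose without overlap. The log2 fold change was 1.39 ± 0.137 at 350 nM (adjusted p = 2.71e-06), and 1 µM was higher than 350 nM by a further 1.58 (adjusted p = 3.88e-08). In parental cells it measured 9.79 and 11.4 CPM in DMSO and 14.8 and 13.7 CPM at 65 nM, a log2 of 0.40 (adjusted p = 0.0615). The difference between the low-dose responses was 0.99 with a 95% interval of 0.59 to 1.39, which did not pass over all genes (adjusted p = 0.0868). Of the 9 tested genes of the receptor's pathway, 2 rose at 350 nM (CYP1A1 and NQO1) and 0 fell, against 2.39% and 1.43% of all genes. The receptor gene AHR stood at 867 and 880 CPM in DMSO and at 813 and 1040 CPM at 350 nM, and its repressor AHRR was under 1 CPM throughout. The target CYP1B1 had a fold change of 0.34 that did not pass (adjusted p = 0.189). With the GC and length correction 4 of the 9 were called higher and 0 lower. ALDH3A1 (0.44, adjusted p = 1.72e-05) and TIPARP (0.28, adjusted p = 0.00211) were then among them. That fit called 901 of all 12650 genes higher and 708 lower. The CYP1A1 call held in all 14 alternatives, and that of NQO1 was lost without either 350 nM library or DMSO replicate 2 (adjusted p up to 0.19).

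Several epithelial genes rose. KRT4, a keratin of mucosal epithelium, measured 7.08 and 7.11 CPM in DMSO and 20.2 and 17 CPM at 350 nM (1.27 ± 0.126, adjusted p = 2.71e-06). HOPX, a homeodomain cofactor of differentiating epithelium, went from 3.85 and 3.96 CPM to 10.9 and 10.5 CPM (1.25 ± 0.154). KRT23, a keratin of simple epithelium, rose from 9.64 and 10 CPM to 17.4 and 19.6 CPM (0.84 ± 0.111, adjusted p = 6.94e-05). All 3 genes were higher again at 1 µM than at 350 nM, KRT4 by 0.84, HOPX by 1.22 and KRT23 by 1.10. The antimicrobial protein S100A7 measured 2.09 and 5 CPM in DMSO and 10.2 and 7.08 CPM at 350 nM (1.14 ± 0.247, adjusted p = 0.00837). Its call was lost without DMSO replicate 1 or 350 nM replicate 1, and with only the lines compared (adjusted p = 0.144). KRT5 is a basal keratin that was higher at a low level, at 0.838 and 0.538 CPM against 1.27 and 1.5 CPM (0.50, adjusted p = 0.0204). KRT4, HOPX and KRT23 were called in each of the 14 alternative analyses. The highest adjusted p over those analyses was 0.295 for S100A7 and 0.286 for KRT5, and the KRT5 call was lost without either 350 nM library or DMSO replicate 2, and also with a pseudocount of 0.25 CPM (adjusted p = 0.111), with voom (0.104) and with only the lines compared (0.0652).

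The keratins and envelope genes did not move one way. Of 26 tested members of the list of basal and stress keratins and the cornified envelope, 4 rose and 3 fell, with a median of 0.03. Among all tested genes 2.39% were called higher and 1.43% lower. KRT6C, a keratin of stressed and proliferating epidermis, fell most, from 8.04 and 7.69 CPM in DMSO to 2.25 and 3.1 CPM at 350 nM and 0.442 and 0.425 CPM at 1 µM. Its log2 change at 350 nM was -1.28 ± 0.177 (adjusted p = 0.000121). KRT6B fell by 0.70 (adjusted p = 0.0143), and KRT6A, the most abundant of the 3, had 137 and 126 CPM against 95.2 and 98.5 CPM, a change of -0.44 that did not pass (adjusted p = 0.0975). The KRT6 genes are near-identical, so the authors' counting could have split reads between them. CASP14, the caspase of epidermal barrier formation, dropped from 113 and 110 CPM to 64.5 and 63 CPM (-0.80 ± 0.102, adjusted p = 5.06e-05) and was lower again at 1 µM, at 38.2 and 38.3 CPM. The calls for KRT6C and CASP14 held in all 14 alternatives, and that for KRT6B was lost without 350 nM replicate 1 or either DMSO library and with a pseudocount of 0.25 CPM (adjusted p up to 0.166).

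Cell surface, adhesion and stem-like markers rose in part. ALDH1A3, an aldehyde dehydrogenase that marks stem-like breast cancer cells, measured 45.2 and 43.7 CPM in DMSO and 82.7 and 83.6 CPM at 350 nM (0.89 ± 0.0756, adjusted p = 3.97e-07). At 1 µM it was at 78.3 and 79.4 CPM, which did not differ from 350 nM by the test (-0.08, adjusted p = 0.523). The related ALDH1A1 rose from 13.9 and 15.3 CPM to 26.1 and 23.8 CPM (0.73 ± 0.114, adjusted p = 0.000422). The list members CD44, PROM1 and ITGA6 did not pass before or after the GC and length correction, which gave changes of 0.04, 0.16 and 0. CD24 was absent from the deposited values. E-cadherin (CDH1), which joins epithelial cells, rose from 236 and 243 CPM to 313 and 318 CPM (0.40 ± 0.0595), and P-cadherin (CDH3) from 96.2 and 93.1 CPM to 142 and 127 CPM (0.50 ± 0.0951). The gap junction gene GJB2 fell from 155 and 144 CPM to 111 and 118 CPM (-0.39 ± 0.094, adjusted p = 0.0189). Of 20 tested members of the adhesion and stem-like list, 4 rose and 1 fell, against 2.39% and 1.43% of all genes. ALDH1A3, ALDH1A1 and CDH1 were called in all 14 alternatives, CDH3 was lost without 350 nM replicate 1 or DMSO replicate 2 (adjusted p up to 0.053), and GJB2 was lost without any 1 of the 4 libraries (up to 0.231).

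Other genes named for the size of their rise include secreted and membrane proteins. MGP, an inhibitor of calcification, measured 6.17 and 8.19 CPM in DMSO and 21.6 and 17.8 CPM at 350 nM (1.34 ± 0.175). The mucosal chemokine CXCL17 measured 21.3 and 27.7 CPM in DMSO and 53.2 and 46.7 CPM at 350 nM (1.01 ± 0.109), and the chemokine CCL22 rose by 0.87. VTCN1 encodes the immune checkpoint ligand B7-H4 and rose from 15.3 and 14.2 CPM to 29.5 and 26.6 CPM (0.88 ± 0.107). The rule also named the receptor-like genes GPRC5B (1.26) and GPR115 (0.95), the serine protease TMPRSS4 (1.10), the corepressor HR (1.02), VSIG10L (0.97) and the iron reductase CYBRD1 (0.90). All of these rose in the resistant cells, and the call for CCL22 was lost without 350 nM replicate 2 or DMSO replicate 2 (adjusted p up to 0.0787).

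**Figure D2:**
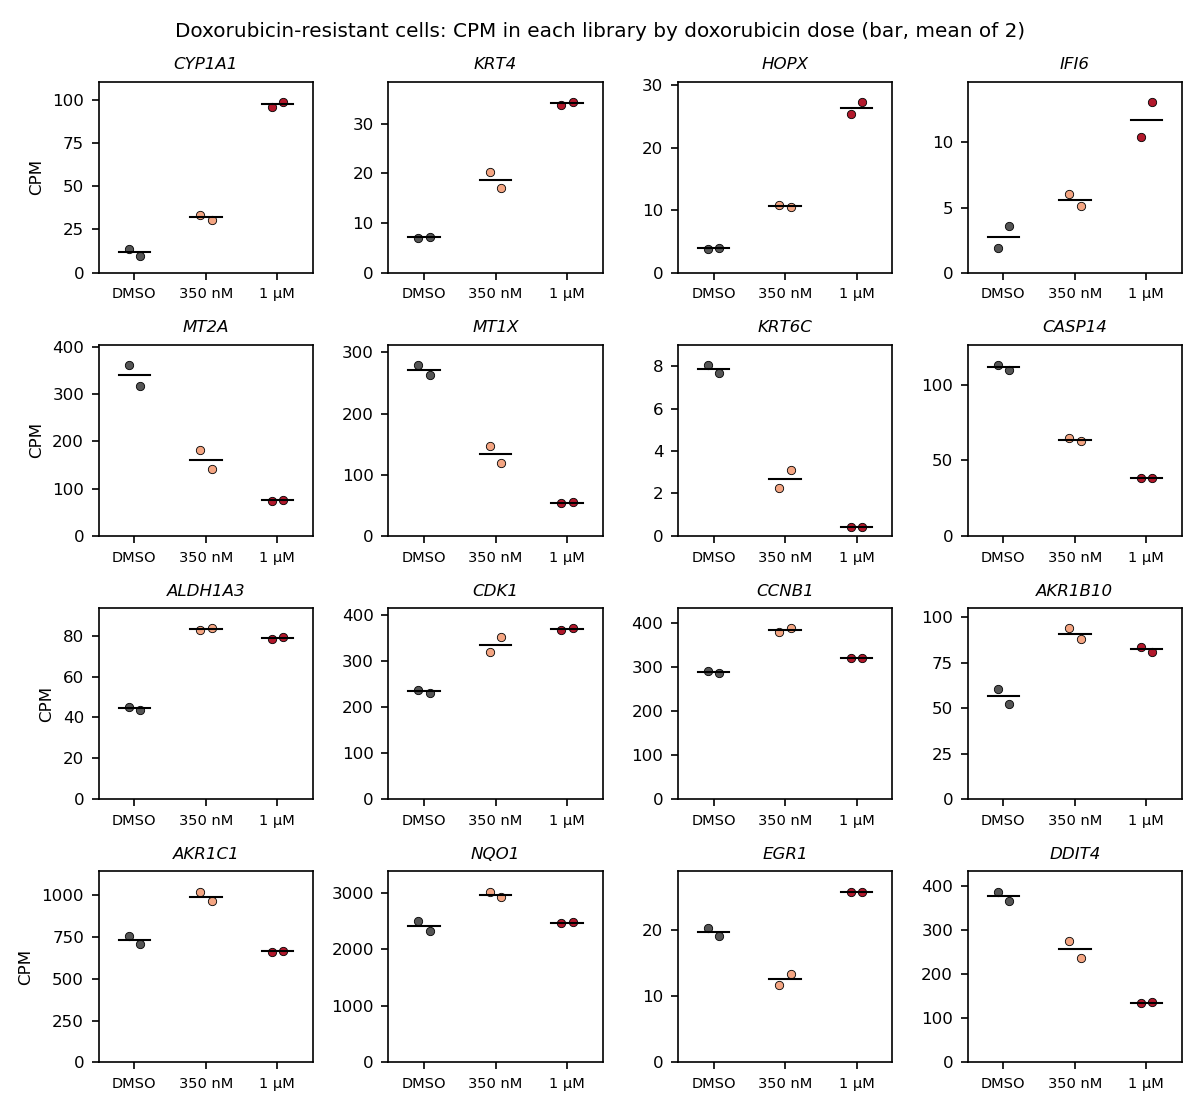
Points show the CPM of each library of doxorubicin-resistant cells in DMSO, 350 nM and 1 µM doxorubicin for 16 genes, with bars at the mean of 2 libraries and each y axis starting at 0. CYP1A1 climbs at each step to 95.9 and 98.6 CPM, MT2A falls at each step to 74.6 and 76.5 CPM, and AKR1C1, NQO1 and EGR1 turn back between 350 nM and 1 µM.

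Metallothioneins, small cysteine-rich proteins that bind zinc and copper, were the abundant genes that fell most. MT2A measured 361 and 318 CPM in DMSO, 182 and 141 CPM at 350 nM and 74.6 and 76.5 CPM at 1 µM. Its level at 350 nM was 47.6% of DMSO (-1.07 ± 0.113, adjusted p = 4.9e-06). MT1X followed the same steps, from 279 and 263 CPM to 147 and 120 CPM and then 53.6 and 55.5 CPM, with a change of -1.03 ± 0.111 at 350 nM. Both were lower at 1 µM than at 350 nM, by -1.07 and -1.27. These are the genes whose promoters carry the metal response matches printed above. The other metallothioneins were scarce: MT1F stood at 7.05 and 7.19 CPM in DMSO and 6.33 and 4.91 CPM at 350 nM and did not pass (-0.30, adjusted p = 0.141). The regulator MTF1 measured 55.7 and 55.6 CPM against 58.2 and 60.4 CPM, and the zinc exporter SLC30A1 39.9 and 39.3 CPM against 35.2 and 47.3 CPM, and neither passed. Of 7 tested members of the list, 2 fell and 0 rose, against 1.43% and 2.39% of all genes. Metallothionein genes resemble each other, so reads could be shared between copies.

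The other genes named for the size of their fall had varied functions. UGT2B11 and UGT2B28 glucuronidate steroids and are near-identical neighbours, so their counts are uncertain. UGT2B11 went from 161 and 179 CPM in DMSO to 89 and 104 CPM at 350 nM and 24.1 and 21.7 CPM at 1 µM (-0.81 ± 0.13 at 350 nM, adjusted p = 0.000602), and UGT2B28 fell by 0.69. Also named were the muscarinic receptor CHRM3 (-0.82), the collagen COL8A1 (-0.71), the linker histone H1FX (-0.70), the transcription factor ZIC2 (-0.70), the lymphatic growth factor receptor FLT4 (-0.69), the telomere helicase RTEL1 (-0.67), RADIL (-0.67) and the p38-activating kinase MAP2K6 (-0.66). Calls for UGT2B28, COL8A1, FLT4, RTEL1 and RADIL were lost without at least 1 of the DMSO libraries, those for RADIL and RTEL1 also without 350 nM replicate 2 (adjusted p = 0.292 and 0.101), and that for COL8A1 also without 350 nM replicate 1 (0.0854) and with a pseudocount of 0.25 CPM (0.0998). PPBP, a platelet-type chemokine chosen after its values were seen because its mean fell under the 5 CPM that the naming rule asks for, had the largest fall of all: 3.54 and 5.77 CPM in DMSO against 0.637 and 0.398 CPM (-1.87 ± 0.206, adjusted p = 6.6e-06).

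Matrix and mesenchymal genes split. Of 24 tested, 2 rose and 4 fell, against 2.39% and 1.43% of all genes, with a median of -0.05. The type V collagen gene COL5A1 rose from 9.83 and 9.23 CPM to 18.4 and 16.9 CPM (0.82 ± 0.136), and the gelatinase gene MMP2 rose at low level from 0.343 and 0.231 CPM to 1.35 and 1.33 CPM (0.86 ± 0.125). Those that fell include COL8A1, the crosslinking enzyme TGM2 (-0.58) and the matricellular CTGF, a known target of TGF-beta and of YAP (-0.54 ± 0.088, adjusted p = 0.000809). Vimentin (VIM), the mesenchymal intermediate filament, was at 1.37 and 1.15 CPM in DMSO and 1.09 and 0.796 CPM at 350 nM. The TGM2 call was lost without any 1 of the 4 libraries (adjusted p up to 0.141), and those for COL5A1, MMP2 and CTGF held in every alternative that tested them.

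Interferon-stimulated genes were higher in part. Of 40 tested, 10 rose and 0 fell, against 2.39% and 1.43% of all genes. A positive change was seen in 29, and the median was 0.19 against 0 over all tested genes. DDX58, the cytosolic RNA sensor RIG-I, measured 15 and 15.3 CPM in DMSO and 24.7 and 26.4 CPM at 350 nM (0.72 ± 0.139, adjusted p = 0.00345), then 39.7 and 44.3 CPM at 1 µM. IFI6, an interferon-induced mitochondrial protein, rose from 1.9 and 3.58 CPM to 6.07 and 5.13 CPM (0.85 ± 0.173). The antiviral IFIT2 measured 6.17 and 6.04 CPM in DMSO and 10 and 9.91 CPM at 350 nM (0.63 ± 0.142), and IFIT3 measured 3.66 and 3.88 CPM and 5.58 and 6.77 CPM (0.58 ± 0.153). The other 6 were OASL (0.82), TRIM22 (0.60), OAS2 (0.57), SAMD9 (0.54), ISG20 (0.51) and PARP14 (0.30). Well-known members that did not pass include ISG15 (0.04), IFIT1 (0.55, adjusted p = 0.106) and MX1 (-0.31). Of the 30 list members with a promoter in the table, 19 (63.3%) hold the response element shown for IFIT3 and IFI6, as do 5 of the 6 called members with a promoter. The count of 10 rests on all 4 libraries: it was 0 without DMSO replicate 1, 3 without DMSO replicate 2, 3 without 350 nM replicate 1 and 5 without 350 nM replicate 2 (with 1 then called lower), while the list's median stayed between 0.14 and 0.23. None of the 10 was called in all of the alternatives, and DDX58 came closest, with an adjusted p of 0.0528 without DMSO replicate 1.

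Mitotic genes were higher in part. Of 34 genes of G2/M and mitosis, 7 rose and 0 fell, against 2.39% and 1.43% of all genes. A positive change was seen in 31, with a median of 0.21 against 0 over all tested genes. CDK1, the kinase that starts mitosis, measured 238 and 231 CPM in DMSO and 319 and 353 CPM at 350 nM (0.51 ± 0.105, adjusted p = 0.00576). Its partners CCNB1 (291 and 285 CPM against 378 and 387 CPM, 0.41 ± 0.0869) and CCNB2 (113 and 111 CPM against 150 and 152 CPM, 0.43 ± 0.0939) rose with it. The others were the ubiquitin carrier UBE2C (0.51), the kinesin KIF2C (0.45 ± 0.0668, adjusted p = 0.000259), the kinase AURKA (0.33) and survivin, BIRC5 (0.31). The proliferation marker MKI67 did not differ by the test (545 and 622 CPM against 588 and 565 CPM), nor did PLK1 (0.11) or the doxorubicin target TOP2A (325 and 351 CPM against 377 and 445 CPM, 0.28, adjusted p = 0.265). TOP2A was called after the GC and length correction (0.23, adjusted p = 0.0113). That fit called 901 of all 12650 genes higher and 708 lower. The TTTGAA motif printed for CDK1 and CCNB2 is in 15 of the 28 list promoters (53.6%) and CCAAT in 23 (82.1%). The number called fell to 4 without 350 nM replicate 1 and to 2 without any other of the 4 libraries, with KIF2C called in all 14 alternatives, and it was 18 after the GC and length correction.

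Few genes of replication and repair were called by limma, where 2.39% of all genes were called higher and 1.43% lower. Of 32 genes of DNA replication and nucleotide synthesis, 2 rose, the helicase subunit GINS4 (0.32 ± 0.0706) and the clamp loader RFC3 (0.43 ± 0.113). Of 35 genes of double-strand break repair, 2 rose, among them the end-joining polymerase POLQ (44.6 and 47.5 CPM against 65.2 and 66.8 CPM, 0.51 ± 0.103). Each of the calls for GINS4, RFC3 and POLQ was lost without at least 2 of the 4 libraries, with adjusted p up to 0.37 for RFC3. None of the 12 topoisomerases and their partners and none of 23 G1/S regulators passed with limma or with voom, and 2 and 4 of them had an unadjusted p under 0.05. After the GC and length correction 2 and 3 of them were called. That fit called 5 of the 32 replication genes higher and 1 lower, and 7 of the 35 repair genes higher and 0 lower. Over all 12650 genes in it, 901 were higher and 708 lower. In the limma test 1 of 31 p53 targets rose, the BH3-only gene PMAIP1 (4.3 and 3.27 CPM against 5.28 and 7.3 CPM, 0.60 ± 0.168, adjusted p = 0.0455), and 0 fell. CDKN1A, the cell cycle inhibitor p21, measured 28.7 and 28.7 CPM in DMSO and 28.3 and 25 CPM at 350 nM (-0.11, adjusted p = 0.714), and MDM2, the p53 ligase, 148 and 154 CPM against 133 and 159 CPM. The PMAIP1 call was lost without either DMSO library or 350 nM replicate 2 (adjusted p up to 0.43), with voom (0.0786), with the replicate block (0.0574) and with no filter on low values (0.0863), and 0 of the 31 targets were then called under voom or the block. With the GC and length correction 2 of the 31 p53 targets were called higher and 0 lower. At 1 µM CDKN1A was higher than at 350 nM, at 44.3 and 48.7 CPM (0.78, adjusted p = 1.49e-05).

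Genes that handle the drug or oxidative stress rose in a small number. Of 27 aldo-keto reductases and NRF2 targets, 5 rose and 0 fell, against 2.39% and 1.43% of all genes, with a median of 0.04. AKR1B10, which reduces carbonyl groups, rose from 60.4 and 52.4 CPM to 93.7 and 87.7 CPM (0.68 ± 0.103, adjusted p = 0.000312). AKR1C1 measured 754 and 709 CPM in DMSO and 1020 and 962 CPM at 350 nM (0.43 ± 0.0833), and AKR1C3 rose by 0.38, while AKR1C2, which is close to both in sequence, stood at 3110 and 2870 CPM against 3070 and 3010 CPM. The quinone reductase NQO1 measured 2500 and 2320 CPM in DMSO and 3020 and 2920 CPM at 350 nM (0.30 ± 0.0691, adjusted p = 0.0124), and thioredoxin reductase TXNRD1 rose by 0.36. The NRF2 targets HMOX1 (-0.25), GCLM (0.01) and SLC7A11 (0.02) did not pass. Leaving out 1 library reduced the 5 to between 1 and 4, with 1 left without DMSO replicate 2, and AKR1B10 was called in all 14 alternatives. Of 10 efflux transporters, 1 rose, ABCC5 (21.5 and 21.3 CPM against 27.6 and 27.9 CPM, 0.36 ± 0.0876, adjusted p = 0.0193), a call that was lost without any 1 of the 4 libraries. ABCC1, the pump of anthracyclines, had 553 and 543 CPM in DMSO and 574 and 531 CPM at 350 nM (0.01, adjusted p = 0.982).

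Genes of the integrated stress response, through which ATF4 supplies amino acids under stress, were lower in part. Of 29 tested, 5 fell and 0 rose, against 1.43% and 2.39% of all genes. A positive change was seen in 9, with a median of -0.09 against 0 over all tested genes. DDIT4, an inhibitor of mTOR signalling, fell from 386 and 366 CPM to 275 and 237 CPM (-0.55 ± 0.0891, adjusted p = 0.000625). ATF4 itself measured 305 and 302 CPM against 255 and 240 CPM (-0.29 ± 0.0824, adjusted p = 0.0469), and its call was lost in 7 of the 14 alternatives, without any 1 of the 4 libraries (adjusted p up to 0.287), with no filter on low values (0.0593), with the replicate block (0.0586) and with no variance trend (0.0669). The other 3 were the serine hydroxymethyltransferase SHMT2 (-0.37), the pseudokinase TRIB3 (-0.36) and the arginine importer SLC7A1 (-0.33). DDIT3, which encodes CHOP, stood at 20.3 and 19.3 CPM against 20.5 and 19.3 CPM. The number called was 4 without 350 nM replicate 1, 2 without DMSO replicate 2 and 1 without either of the others, and DDIT4 was called in all 14 alternatives. Of 21 chaperone and unfolded protein response genes, 2 fell, XBP1 (1020 and 1090 CPM against 916 and 900 CPM, -0.22 ± 0.0599) and DNAJB11 (-0.25), and both calls were lost without any 1 of the 4 libraries.

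Cholesterol synthesis genes were higher in part, with 4 of 23 called higher, 0 lower and a median of 0.18. Among all tested genes 2.39% were called higher and 1.43% lower. With the GC and length correction these were 901 and 708 of 12650 genes. They include the isomerase IDI1 (74.6 and 79 CPM against 105 and 125 CPM, 0.57 ± 0.13), the desaturase SC5D (0.50) and the reductase TM7SF2 (0.50). No call in this list remained without either DMSO library, 2 remained without 350 nM replicate 1 and 1 without 350 nM replicate 2, and the GC and length correction called 11. Of 29 lysosome and autophagy genes, 3 rose, the cholesterol exporter NPC1 (0.30) and the autophagosome genes MAP1LC3B (0.37) and GABARAPL1 (0.51), each lost without at least 2 of the 4 libraries (adjusted p up to 0.333 for MAP1LC3B).

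Few cytokine and JAK-STAT genes were called, and more were after the GC and length correction. Before it, 2.39% of all genes were called higher and 1.43% lower. Of 30 JAK-STAT components, 1 rose, the interleukin 6 receptor IL6R, from 38 and 35.3 CPM to 50.5 and 51.3 CPM (0.46 ± 0.0764, adjusted p = 0.000809). Its ligand IL6 stood at 4.42 and 4.96 CPM against 3.11 and 4.07 CPM (-0.32, adjusted p = 0.249), and JAK1, JAK2 and STAT3 had changes of 0.14 to 0.19 that did not pass. Of 28 STAT3 and STAT5 targets, the siderophore binder LCN2 rose (122 and 125 CPM against 176 and 164 CPM, 0.46 ± 0.0935) and the angiogenic factor VEGFA fell (132 and 131 CPM against 101 and 105 CPM, -0.35 ± 0.0762). Of 32 NF-kB and inflammatory cytokine genes, 1 rose (LCN2) and 2 fell, with a median of 0.03. After the GC and length correction 8 of these 32 were called higher and 2 lower, with a median of 0.03. Of the STAT3 and STAT5 targets 5 were then higher and 2 lower, and of the JAK-STAT components 2 and 1. Over all 12650 genes in that fit, 901 were higher and 708 lower. The interleukin 1 receptor antagonist IL1RN fell from 39.2 and 32.7 CPM to 21.2 and 23.8 CPM (-0.65 ± 0.105) and the cytokine IL1B, at low level, from 1.49 and 1.62 CPM to 0.712 and 0.442 CPM (-0.70 ± 0.156), while IL1A did not pass (-0.35, adjusted p = 0.233). EGR1, an immediate early factor, fell from 20.2 and 19.1 CPM to 11.7 and 13.3 CPM (-0.62 ± 0.0911, adjusted p = 0.000259) and was the only 1 of 20 immediate early genes called. IL6R, IL1RN and EGR1 were called in all 14 alternatives, while LCN2, VEGFA and IL1B were each lost without 3 of the 4 libraries in turn (adjusted p up to 0.0752, 0.091 and 0.155). No member of the ERBB2 amplicon and ERBB list was called by limma or voom among 22 (4 had an unadjusted p under 0.05, and 5 were called after the GC and length correction), with ERBB2 at 2900 and 2950 CPM in DMSO and 3380 and 2990 CPM at 350 nM.

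**Figure D3:**
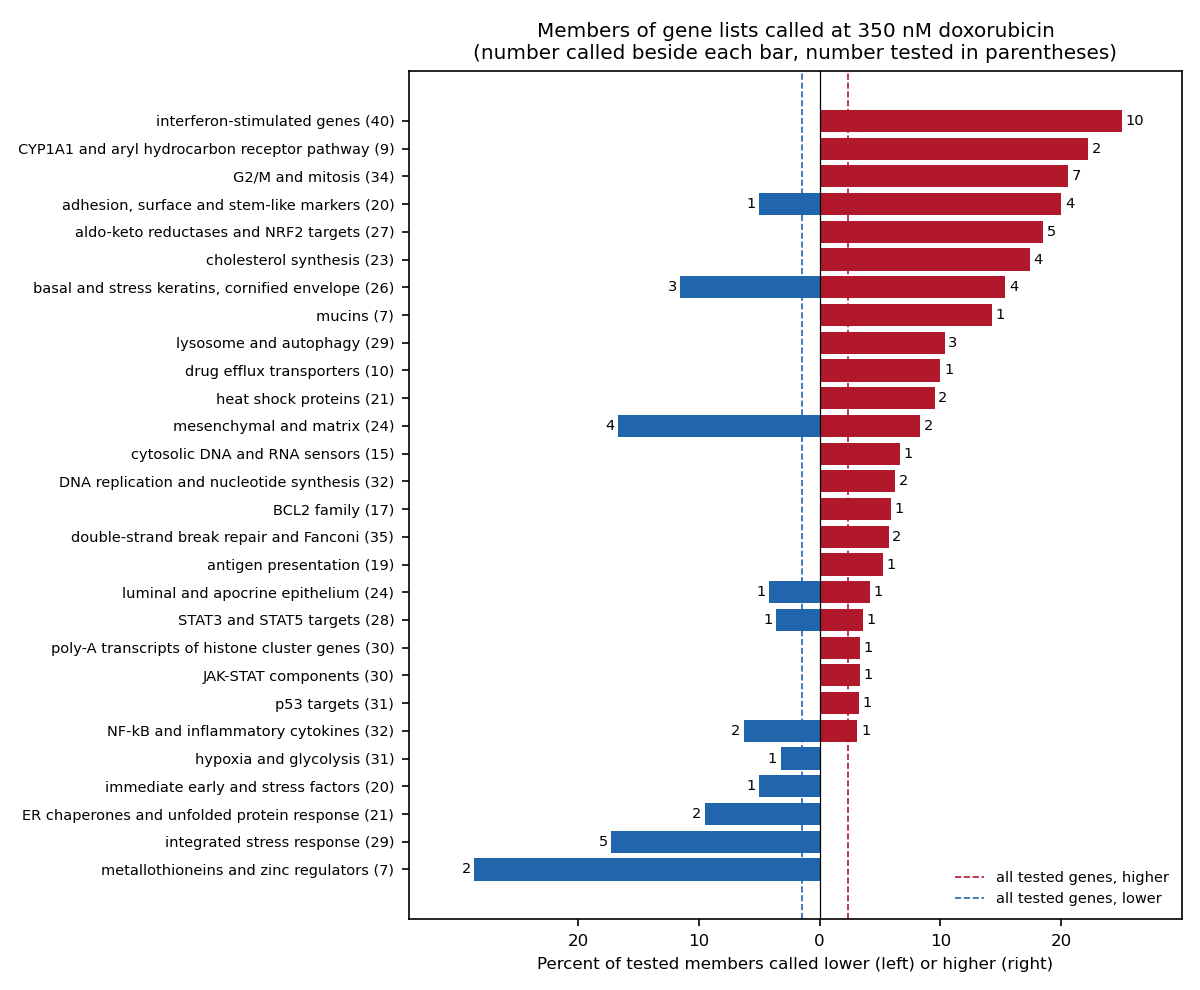
Bars give the percentage of tested members of each gene list that were called higher (right, red) or lower (left, blue) at 350 nM, for lists with at least 1 call. Numbers beside the bars count the called members, and dashed lines mark 2.39% and 1.43%, the shares of all tested genes called higher and lower. Interferon-stimulated genes reach 10 of 40 and metallothioneins 2 of 7.

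The step from 350 nM to 1 µM in the same line called 2743 genes (21.5%), 1270 higher (9.97%) and 1473 lower (11.6%), and 1 µM against DMSO called 39.1% of genes, 19.1% higher and 19.9% lower. This comparison shares the 350 nM libraries with the one above, so the values are given side by side. CYP1A1, KRT4, HOPX and DDX58 were higher at 1 µM than at 350 nM, and MT2A, MT1X, KRT6C, UGT2B11 and CASP14 were lower, which are the directions each had at 350 nM. Other genes called at 350 nM moved the other way at the next step. Error in the shared 350 nM libraries would have the same direction, and its part was not tested. AKR1C1 was at 659 and 667 CPM at 1 µM, and its change from 350 nM was -0.58 (adjusted p = 2.92e-05), while its difference from DMSO did not pass (-0.14, adjusted p = 0.19). NQO1 (2460 and 2490 CPM, -0.26, adjusted p = 0.00843) and CCNB1 (319 and 320 CPM, -0.26, adjusted p = 0.0362) were also lower at 1 µM than at 350 nM. EGR1 was at 25.7 and 25.7 CPM at 1 µM, higher than at 350 nM by 0.98 (adjusted p = 9.18e-08) and than in DMSO by 0.37 (adjusted p = 0.00258). KRT5 fell from 350 nM to 0.221 and 0.348 CPM (-0.90).

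Some of the genes that differed most between these doses did not pass at 350 nM. The gel-forming mucin MUC5B had 139 and 204 CPM in DMSO, 173 and 110 CPM at 350 nM and 10.3 and 12 CPM at 1 µM, a change of -3.52 between the doses. Fibrinogen FGB had 862 and 1020 CPM, 886 and 934 CPM, and 269 and 263 CPM (-1.77). The lysosomal glycoprotein GPNMB had 1.79 and 2.54 CPM, 3.11 and 2.39 CPM, and 12.2 and 12.4 CPM (1.83), and the stress phosphatase subunit PPP1R15A 12.6 and 10.9 CPM, 14.6 and 12.3 CPM, and 33.3 and 37.2 CPM (1.33). For each of these 4 genes the DMSO and 350 nM libraries overlapped or lay close, with changes of -0.28 to 0.25 that did not pass, while 1 µM stood clear of both.

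The response was then set beside that of parental cells, which share no library with it. At 65 nM parental cells had 1421 called genes (11.2%), 664 higher (5.21%) and 757 lower (5.94%). Of the 304 genes higher in resistant cells at 350 nM, 197 (64.8%) were also called higher in parental cells at 65 nM, 0 were called lower, and 296 (97.4%) had a positive change, against 47.3% of all tested genes. Of the 182 lower genes, 111 (61%) were called lower, 0 were called higher and 177 (97.3%) had a negative change, against 52.7% of all. The shared genes were 29.7% of the higher and 14.7% of the lower calls of the parental cells. The same-sign share was 93.6% to 99.3% for higher and 87% to 100% for lower genes when 1 library of resistant or parental DMSO or of 350 nM was left out, and 95.7% and 98.4% after the GC and length correction. The called shares were lower in both directions when either parental DMSO library or 350 nM replicate 1 was left out. They were higher in both directions when 350 nM replicate 2 or either resistant DMSO library was left out. The genes called in resistant cells and the shares of all genes called in parental cells changed in those fits too. Across all 12743 genes, which are not independent replicates, the changes had a Pearson r of 0.558 and a Spearman rho of 0.457.

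Members with close changes in both lines include GPRC5B (1.26 in resistant and 1.24 in parental cells), HOPX (1.25 and 1.19), CXCL17 (1.01 and 1.17), AKR1B10 (0.68 and 0.71), MT1X (-1.03 and -0.91) and KIF2C (0.45 and 0.45). For HOPX the 95% interval of the difference was -0.38 to 0.52 and for KIF2C -0.19 to 0.20, and differences of that size remain possible. The difference between the responses was called for 1 gene of 12743 (0.00785%), C2orf54, with 781 genes at an unadjusted p under 0.05. The doses differ, 350 nM against 65 nM, and the difference followed transcript GC content across genes with a rho of -0.627, which was -0.0257 after the correction that called 19 genes. C2orf54 measured 8.87 and 9.58 CPM in DMSO and 8.69 and 8.05 CPM at 350 nM in resistant cells (-0.13), and in parental cells 2.63 and 3.26 CPM in DMSO and 6.25 and 7.01 CPM at 65 nM (0.96). Among genes with a large response, CYP1A1 had the wider gap described above, and GJB2 fell more in parental cells (-1.10) than in resistant cells (-0.39), a difference of 0.72 with an interval of 0.44 to 0.99 (adjusted p = 0.0678).

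**Figure D4:**
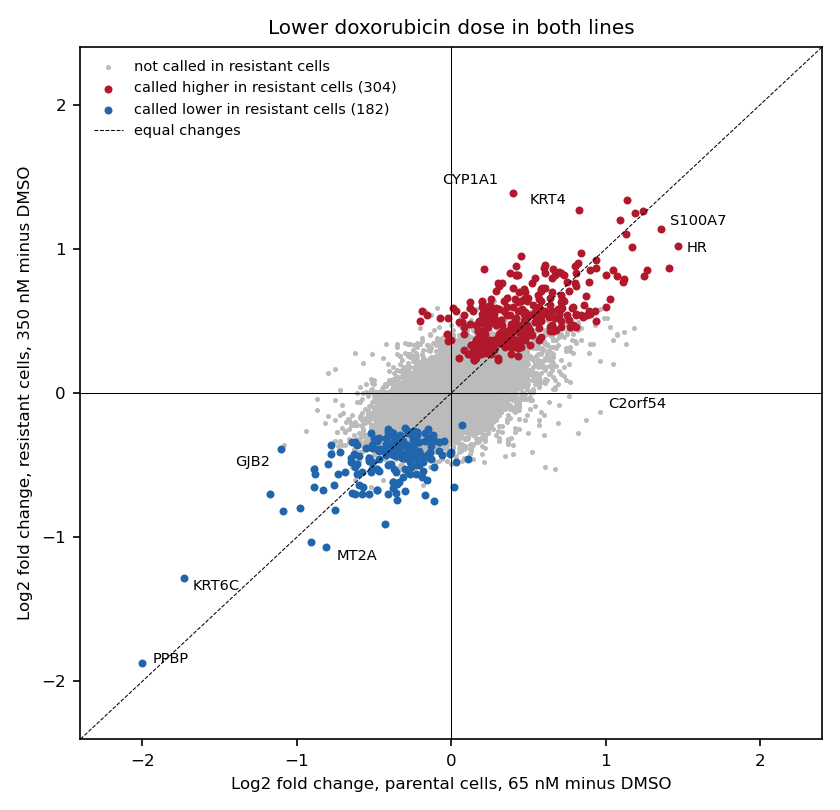
Each point is 1 tested gene, with its log2 fold change in parental cells at 65 nM on the x axis and in resistant cells at 350 nM on the y axis. Genes called higher in resistant cells are red and those called lower are blue, and the dashed line marks equal changes. Of the 304 red genes, 296 lie right of 0, and of the 182 blue genes, 177 lie left of it, while CYP1A1 sits at 0.40 and 1.39.

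At 1 µM 75.8% of genes were called in parental cells, 34.3% higher and 41.5% lower. The difference between the response of resistant cells to 350 nM and that of parental cells to 1 µM was called for 8141 genes (63.9%), 35.8% of genes positive and 28.1% negative. Of the 304 genes higher at 350 nM in resistant cells, 185 (60.9%) were called higher and 62 lower in parental cells at 1 µM, and of the 182 lower genes 155 (85.2%) were called lower and 13 higher. Metallothioneins fell in both but to different extents: MT1X went from 762 and 965 CPM to 12.7 and 10.4 CPM in parental cells at 1 µM (-6.10), against the change of -1.03 in resistant cells at 350 nM. CASP14 showed the same order, from 548 and 602 CPM to 7.95 and 5.3 CPM (-6.26) against -0.80. ALDH1A3 and KRT4, which rose in resistant cells at 350 nM, fell in parental cells at 1 µM, ALDH1A3 from 79 and 71.6 CPM to 23.4 and 28.2 CPM (-1.51) and KRT4 from 18.4 and 23.6 CPM to 11.1 and 9.51 CPM (-0.95). Stress genes differed in size. DDIT3 was at 15.9 and 17.6 CPM in DMSO and 196 and 143 CPM at 1 µM in parental cells (3.25), against 0.01 in resistant cells at 350 nM, and PMAIP1 had changes of 3.84 and 0.60. The difference between the responses was called for each of these genes, from an adjusted p of 2.88e-10 for KRT4 to 9.21e-19 for CASP14. The doses differ, so line and dose cannot be told apart here.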

How the data were processed

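Poly-A RNA of 30 libraries in 15 groups of 2 was measured by RNA sequencing. The deposited table holds log2 values of CPM plus 1 per gene, and the authors aligned reads with STAR 2.5.1b to GRCh37 (hg19) and used edgeR, per the submitters' processing notes. How edgeR was used is not given in the sources used here, nor is the gene annotation. Whole reads could be recovered for 100% of values within 0.01 reads, which gave the depths of 18443749 to 32669995 reads per library. The deposited log2 values were fitted with limma 3.58.1 (R 4.3.3), with 1 mean for each of the 15 groups, a variance trend and robust estimation, which left 15 residual degrees of freedom. Calls were made at a Benjamini-Hochberg threshold of 0.05 over the 12743 genes with at least 1 CPM in at least 2 libraries. An adjusted p in the text comes from this model unless an alternative fit is named with it. Differences between responses are contrasts of the same fit. The code was tested on simulated data.

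Genes named for size are the 15 largest called changes in each direction (8 for other comparisons) with a mean of at least 5 CPM in 1 of the groups and libraries that do not overlap, the last condition dropped for differences of responses. From these and the gene lists, examples are given, and some members are not reported here. The members and lists were chosen with earlier results of these data known. Promoters came from RefSeq (GRCh38.p14), 250 bases before each start, and motifs were searched on both strands. Alternatives were another pseudocount, filters, scaling, a replicate block, only the lines compared, no trend, voom on recovered reads, a correction for transcript GC content and length with and without the block, and each library left out. Counts per list and for parental cells under these settings were added after the data were seen. Replicate numbers were not used as pairs: same-numbered libraries in DMSO and 350 nM deviated together with a correlation of 0.16 over 12743 genes, and with 2 libraries a group this does not show a pairing.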

Additional observations from a re-analysis of the deposited data

Results flagged for a closer look

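C2orf54 was the 1 gene whose response differed between the lines by a test of the difference itself. Its response to 350 nM in resistant cells minus its response to 65 nM in parental cells was -1.08 ± 0.178 on the log2 scale (95% interval -1.45 to -0.71, adjusted p = 0.0418 by limma). It changed by -0.13 in resistant cells, where both 350 nM libraries lay below both DMSO libraries, and by 0.96 in parental cells. Over the alternatives the difference lay between -1.29 and -0.91. The call was lost with no filter on low values (adjusted p = 0.116), with the replicate block (0.069), with only the lines compared (0.29) and in each fit without 1 library (0.0709 to 0.617) except that without parental DMSO replicate 2 (0.0319).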

How the results depend on the processing

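The 486 calls of 350 nM against DMSO were 1609 after the correction for transcript GC content and length and 1599 with the replicate block added to it, and 130 to 264 when 1 of the 4 libraries was left out, with 130 without DMSO replicate 1, 143 without DMSO replicate 2, 213 without 350 nM replicate 2 and 264 without 350 nM replicate 1. The remaining alternatives gave 406 to 495. The 2743 calls of 1 µM against 350 nM were 4706 and 4665 under the 2 corrections and 1542 to 2047 without 1 library. The difference between the 350 nM response and the parental 65 nM response had 1 call, which became 0 with no filter, with the replicate block or with only the lines compared, 2 with no variance trend or with voom, 19 after the correction, 18 with block and correction, and 0 to 1 without 1 library. The 8141 calls of the difference from the parental 1 µM response stayed within 1.5 times. The replicate block alone gave 426 calls for 350 nM against DMSO, and the numbers mark no known pairing. Of the 30 genes named for size in that comparison, 23 were called in every one of the 14 alternatives that tested them. Among all 95 named called genes 36 were, and 0 changed sign. A lone library left in a group was assumed to vary like the other groups. Depth limits statements on genes under 0.112 to 0.133 CPM, the floor of 3 reads.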

Other observations

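Other gene groups at 350 nM had few called members, where 2.39% of all genes were called higher and 1.43% lower. B2M, the light chain of class I antigen presentation, measured 760 and 743 CPM in DMSO and 912 and 1010 CPM at 350 nM (0.35, adjusted p = 0.0399), the only 1 of 19 antigen presentation genes called although 17 had a positive change. After the GC and length correction 6 of the 19 were called higher at 350 nM and 0 lower. Over all 12650 genes in that fit, 901 were higher at 350 nM and 708 lower. At 1 µM 11 of the 19 were higher than at 350 nM. The heat shock genes HSPB8 (0.50) and HSPA2 (0.44) rose among 21 tested. None of 13 mitochondrially encoded genes and none of 22 genes of fatty acid synthesis and lipid uptake were called by limma or voom, and 0 and 4 of them had an unadjusted p under 0.05. After the GC and length correction 0 and 2 of them were called. The calls for B2M and HSPA2 were lost without any 1 of the 4 libraries, and that for HSPB8 without DMSO replicate 2.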
